A study of Mus musculus with 12 samples.

Results

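Short-lived mRNAs of T cells, such as those of cytokines and early response genes, carry signals for decay in their 3′ untranslated region (UTR). The 8 genes described here encode RNA-binding proteins that read these signals: *Zfp36*, *Zfp36l1*, *Zfp36l2*, *Zc3h12a*, *Rc3h1*, *Rc3h2*, *Elavl1* and *Khsrp*. They were matched by symbol, and all 8 were found among the 49585 genes counted and passed the filter on low counts in both kinds of library. In *Rnmt* cKO cells the total RNA of 5 of them was higher and that of *Zfp36l2* was lower, where 26.3% of all genes tested were called higher and 28.0% lower. With *Rnmt* cKO 3 alone, the library whose B cell but not NK cell markers lay within the range of controls, 2 members were called higher, where 19.7% of genes were. Ribosome-protected fragments (RPF) of *Zfp36l1*, *Zfp36l2* and *Khsrp* were fewer, as were those of 15.7% of genes, and those of no member were more. For these 3 genes the translational efficiency (TE), the RPF signal relative to total RNA, fell, as it did for 6.57% of genes. Of the 701 genes with lower TE, 613 were also called higher in total RNA, as were *Zfp36l1* and *Khsrp*. Same-numbered total RNA and RPF libraries were inferred to share a culture, which the labels do not state. With a block for it, *Zfp36l2* did not pass in TE (adjusted p = 0.053 from edgeR) and *Elavl1* did (adjusted p = 0.031).

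The AU-rich element is built of overlapping AUUUA pentamers. ZFP36 (tristetraprolin) and its relatives ZFP36L1 and ZFP36L2 bind it with zinc fingers and recruit the CCR4-NOT deadenylase, which shortens the poly(A) tail. KHSRP binds AU-rich RNA with KH domains and promotes its decay, whereas HuR, the product of *Elavl1*, binds similar sequences and is best known for stabilising them. Stem-loops are read by Regnase-1, the endonuclease encoded by *Zc3h12a*, and by Roquin-1 and Roquin-2, encoded by *Rc3h1* and *Rc3h2*, which recruit the deadenylase. In T cells the ZFP36 family, Regnase-1 and the Roquins restrain activation, and Regnase-1 and the Roquins are cleaved by the protease MALT1 after T cell receptor stimulation.

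RNMT is the enzyme that methylates the guanosine of the mRNA cap, and the comparison asked how these genes are expressed and translated without it. Controls were *Rnmt* fl/fl CD4cre - and *Rnmt* cKO were *Rnmt* fl/fl CD4cre +, so that both genotypes carried the floxed alleles, all mice were female, and ages are not given in the labels. The Cre is driven by the *Cd4* promoter, which is active from the double positive stage of the thymus, so that cells matured without an intact gene before they were activated. Naive CD4 T cells isolated from lymph nodes were activated for 20 h on plates that had been coated with anti-CD3 (5 ug/ml) together with anti-CD28 (1 ug/ml), and both genotypes received 0.1 mg/ml cycloheximide, which arrests ribosomes, for 1 min before lysis. Total cytoplasmic RNA and RPF were sequenced as 3 libraries each per genotype, 12 in all, numbered 1 to 3 within a group. Because the labels do not say whether each number is a separate mouse, p-values measure only the spread between these libraries, which may be technical.

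Reads assigned to genes numbered 18915961 to 19111659 in control libraries of total RNA and 15079703 to 22629563 in those of *Rnmt* cKO. In RPF the range was 6786164 to 10661356 in controls and 4123271 to 10166729 in *Rnmt* cKO, of which replicate 3 was the shallowest. Levels are given in CPM, counts of a gene relative to the library total, scaled by edgeR's TMM factors, and are relative to the sequenced RNA of a library, so that a change in mRNA per cell is not included. Fewer cells of a type and less RNA per cell cannot be told apart in such samples.

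The labels were checked with *Rnmt* itself, whose total RNA was 95.5, 94.1 and 94.3 CPM in controls and 29.3, 32.4 and 30.4 CPM in *Rnmt* cKO. Its RPF were 104, 87.9 and 98.9 CPM against 10.5, 10.4 and 9.60 CPM. Both ranges were separate, although counts over the whole gene include exons that were not deleted. All 8 markers of CD4 T cells were above 1 CPM in each kind of library on average. Their summed level in total RNA was 3398 to 3677 CPM in controls and 2547 to 2914 CPM in *Rnmt* cKO, with *Cd28* the most abundant. In RPF the mean sum was 6659 CPM in controls and 5015 CPM in *Rnmt* cKO, with *Cd5* the most abundant. Of the 8 markers 5 were called lower and 0 higher in each kind, where 28.0% of genes were called lower in total RNA and 15.7% in RPF. The 2 CD8 T cell markers summed to 9.85 to 41.7 CPM over all total RNA libraries.

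Markers of B cells differed among the *Rnmt* cKO libraries. The 6 markers summed to 9.92, 6.25 and 35.6 CPM in total RNA of controls and to 91.9, 110.5 and 20.2 CPM in *Rnmt* cKO, with *Ms4a1* the most abundant, and to 12.8, 8.59 and 42.8 CPM against 139, 151 and 23.9 CPM in RPF. *Rnmt* cKO 1 and 2 were therefore above every control and *Rnmt* cKO 3 was within the range of controls. The 5 NK cell markers summed to 6.10, 7.78 and 8.36 CPM in total RNA of controls and to 25.6, 40.9 and 26.8 CPM in *Rnmt* cKO, and to 10.7, 7.08 and 21.1 CPM against 59.9, 84.4 and 65.5 CPM in RPF, so that *Rnmt* cKO 3 was above every control in this list. Most of the sum was *Eomes*, which activated T cells can also express, at 2.90 ± 0.410 and 25.4 ± 8.88 CPM in total RNA (SD, n = 3). *Klrk1* was also higher, at 1.12 ± 0.587 and 2.26 ± 0.432 CPM, and *Klrd1* overlapped. *Ncr1* and *Klrb1c* were too low to be tested, at 0.0707 and 0.0180 CPM in controls and 0.494 and 0.354 CPM in *Rnmt* cKO, without overlap. Of 6 myeloid markers *Cd68* alone averaged above 1 CPM, and the sum was 1.02 to 2.51 CPM over all total RNA libraries. Total RNA reads that fell on no annotated exon were 5.34 to 5.997% of a library in controls and 7.24 to 8.21% in *Rnmt* cKO. The part of these differences in the results below was not tested, but values for *Rnmt* cKO 3 alone against the controls are given beside several of them. With 1 *Rnmt* cKO library per kind, the spread in that fit comes from the controls alone and the lone library is assumed to vary as they do, so that its p-values are weak evidence in either direction and the sizes are the main reading.

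Because the proteins encoded by several of these genes act on AU-rich 3′ UTRs, the annotated 3′ UTR of each gene's longest coding transcript (GENCODE vM21, GRCm38) was searched on the transcript strand for the nonamer TTATTTATT, the core site of the ZFP36 family written as DNA, and for the heptamer TATTTAT that lies within it. Of the 8 genes, 6 held a nonamer, compared with 724 of 9947 genes tested in both kinds of library (7.28%), although 3′ UTRs of the 8 genes were long (median 1828 bases against 982). Among genes with a 3′ UTR within 20% of the same length, the share with a nonamer was 4.60% for *Zfp36*, 8.35% for *Zfp36l1*, 8.44% for *Zfp36l2*, 24.6% for *Rc3h1*, 19.3% for *Rc3h2* and 17.5% for *Elavl1*. The sites are shown as the first match in each 3′ UTR, 5′ to 3′, with the nonamer in capitals, because they hold the letters that the ZFP36 family is known to bind.
Zfp36: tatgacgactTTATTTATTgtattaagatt
Zfp36l1: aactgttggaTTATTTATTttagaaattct
Zfp36l2: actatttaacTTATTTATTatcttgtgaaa
Rc3h1: actttactcaTTATTTATTgagatgaggag
Rc3h2: caaagacattTTATTTATTttactctgtaa
Elavl1: gtcatgaaaaTTATTTATTtatttatttat
The windows lie in GRCm38 at chr7:28376950-28376979, chr12:80108166-80108195, chr17:84184913-84184942, chr1:160970043-160970072, chr2:37373286-37373315 and chr8:4285787-4285816, on the plus strand for *Rc3h1* and on the minus strand for the others. *Elavl1* held 8 nonamers, most of them overlapping, and the other 5 genes held 1 each. *Zc3h12a* and *Khsrp* held neither motif in 3′ UTRs of 856 and 1642 bases, a length at which 20.6% and 35.3% of genes held the heptamer. A match is a description of the letters and not evidence of binding.

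*Zfp36l1* (ENSMUSG00000021127, chr12:80107754-80113013, minus strand) was the member with the largest change in TE. Its total RNA was 88.3, 90.3 and 99.998 CPM in controls and 114, 153 and 112 CPM in *Rnmt* cKO, and every *Rnmt* cKO library was above every control. In RPF the order was turned, with 402, 415 and 470.1 CPM in controls and 282, 237 and 283 CPM in *Rnmt* cKO, again with no overlap. The fold change was 1.36 in total RNA (log2 0.45, SE 0.12, adjusted p = 0.016 in the edgeR quasi-likelihood fit over all genes) and 0.622 in RPF (log2 -0.68, SE 0.09, adjusted p = 0.0013). Without control 1 or control 2 the rise in total RNA did not pass the threshold (adjusted p = 0.063 and 0.056), whereas the fall in RPF passed under all 16 alternatives.

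The RPF level of *Zfp36l1* was 4.55, 4.59 and 4.70 times the total RNA level in same-numbered control libraries and 2.48, 1.54 and 2.52 times in *Rnmt* cKO, with no overlap and with *Rnmt* cKO 2 the lowest. In the test of whether the genotype effect differed between RPF and total RNA, fitted to 12 libraries, TE fell by 1.13 on the log2 scale (SE 0.17, 95% confidence interval -1.495 to -0.765, adjusted p = 9.1e-04 from edgeR), to 0.457 of the control value, and 0.937% of the 10668 genes tested had a lower value. With *Rnmt* cKO 3 alone, the change in TE was -0.90 (adjusted p = 0.016).

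*Zfp36l2* (ENSMUSG00000045817, chr17:84183931-84187947, minus strand), which is required for lymphocyte development together with *Zfp36l1*, was the member that fell in both kinds of library. Its total RNA was 81.4, 79.4 and 81.2 CPM in controls and 73.0, 70.2 and 64.1 CPM in *Rnmt* cKO. Its RPF were 311, 315 and 302 CPM in controls and 206, 185 and 223 CPM in *Rnmt* cKO. No library of one genotype entered the range of the other. The fold change was 0.856 in total RNA (log2 -0.23, SE 0.06, adjusted p = 0.019 from edgeR) and 0.661 in RPF (log2 -0.60, SE 0.07, adjusted p = 9.3e-04). The fall in total RNA missed the threshold without control 1 (adjusted p = 0.065) and with the replicate block (adjusted p = 0.054).

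The RPF level of *Zfp36l2* was 3.83, 3.96 and 3.71 times its total RNA level in controls and 2.83, 2.64 and 3.48 times in *Rnmt* cKO, where replicate 3 was nearest to the controls. TE fell by 0.37 on the log2 scale (SE 0.10, adjusted p = 0.038 from edgeR), and the TE of 13.01% of genes had a lower value. This call was lost under 10 of 16 alternatives. With a block for the inferred culture of same-numbered libraries the change was -0.37 (adjusted p = 0.053 from edgeR). The call was also lost with upper quartile factors (adjusted p = 0.058), without a filter (0.088) and with the replicate block (0.11). It was lost too without any 1 of the 3 controls, *Rnmt* cKO 1 or *Rnmt* cKO 2 (0.083 to 0.14). With *Rnmt* cKO 3 alone the change was -0.16 (adjusted p = 0.53).

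*Zfp36* (ENSMUSG00000044786, chr7:28376784-28380253, minus strand), an early response gene of activated cells, did not pass the threshold in total RNA, RPF or TE with TMM factors, the filter and all libraries. Its total RNA was 26.9, 22.8 and 31.5 CPM in controls and 32.7, 37.5 and 31.9 CPM in *Rnmt* cKO, just without overlap, a fold change of 1.26 (log2 0.33, SE 0.13, adjusted p = 0.054 from edgeR). Its RPF were 95.2, 106 and 107 CPM in controls and 99.7, 97.6 and 100.2 CPM in *Rnmt* cKO, which overlapped, with a log2 fold change of -0.05 and a 95% confidence interval of -0.21 to 0.11. The total RNA difference lay near the threshold and passed it under 7 of 16 alternatives, which were DESeq2 (adjusted p = 0.029), the exact test (0.039), library sizes without TMM (0.032), no filter (0.011), both strands (0.047), and leaving out control 3 (0.016) or *Rnmt* cKO 3 (0.044). Without control 2 it was 0.22 on the log2 scale, more than 1.5 times smaller (adjusted p = 0.16 from edgeR). TE changed by -0.38 (SE 0.15, adjusted p = 0.13), and by -0.25 without control 2 and -0.15 with both strands counted.

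**Figure D1:**
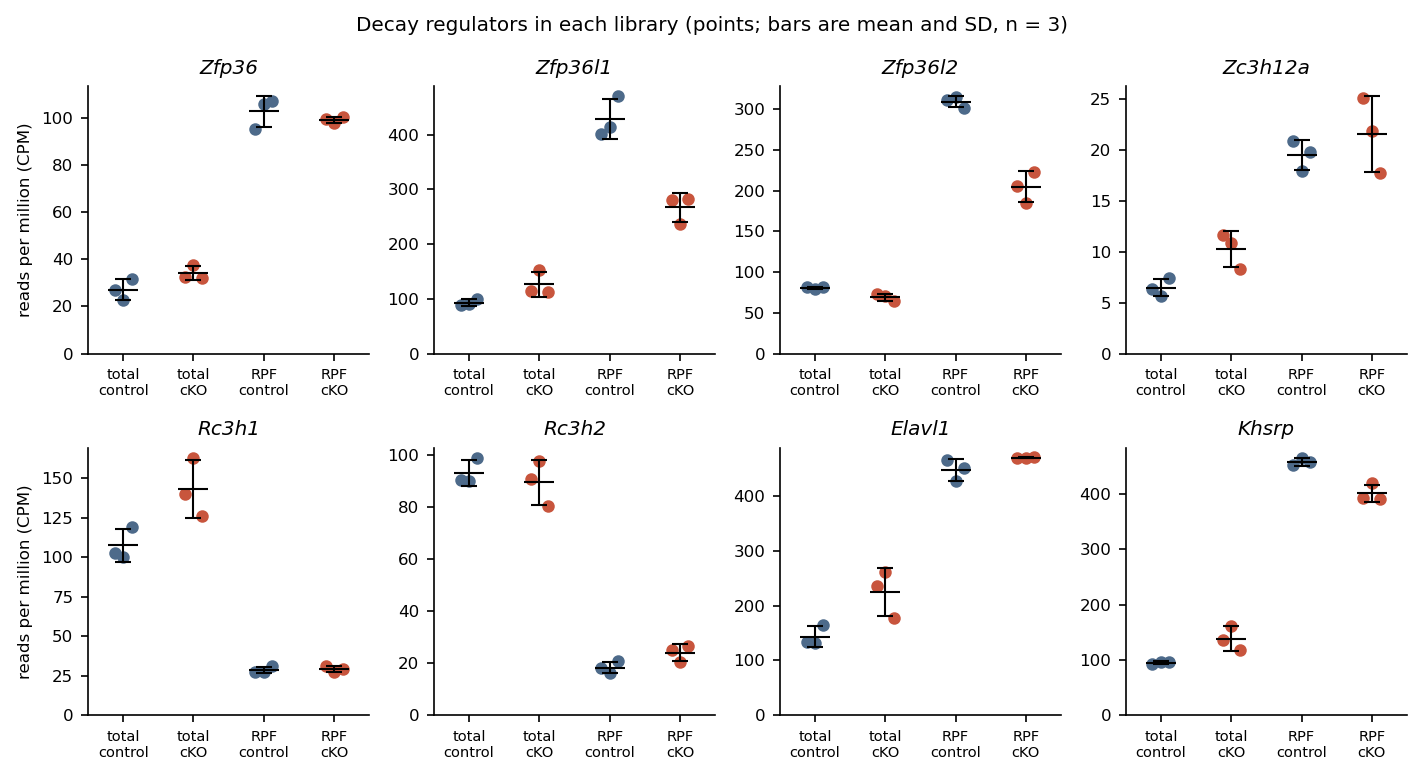
Level in CPM (y axis, from 0) of each of the 8 genes in the 12 libraries, grouped on the x axis as total RNA or RPF of controls (blue) and *Rnmt* cKO (red), with points for libraries and bars for the mean and SD of 3. RPF of *Zfp36l1* and *Zfp36l2* are lower in every *Rnmt* cKO library than in every control, and total RNA of *Elavl1* and *Khsrp* is higher in every one.

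*Zc3h12a* (ENSMUSG00000042677, chr4:125118423-125127840, minus strand), which encodes Regnase-1, had the fewest reads of the 8 in total RNA, between 107 and 211 per library. Its total RNA was 6.37, 5.66 and 7.39 CPM in controls and 11.6, 10.9 and 8.29 CPM in *Rnmt* cKO. All *Rnmt* cKO libraries were above the controls, and replicate 3 was the lowest of them. The fold change was 1.58 (log2 0.66, SE 0.16, adjusted p = 0.0099 from edgeR), and with *Rnmt* cKO 3 alone the log2 fold change was 0.39 (adjusted p = 0.14), more than 1.5 times smaller. RPF were 20.8, 17.9 and 19.9 CPM in controls and 25.2, 21.9 and 17.7 CPM in *Rnmt* cKO. These overlapped (log2 0.15, 95% confidence interval -0.17 to 0.48), and the change in TE of -0.50 (SE 0.23, adjusted p = 0.19) did not pass the threshold.

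*Rc3h1* (ENSMUSG00000040423, chr1:160906418-160974978, plus strand) and *Rc3h2* (ENSMUSG00000075376, chr2:37370069-37422903, minus strand), the genes of Roquin-1 and Roquin-2, did not move alike. Total RNA of *Rc3h1* was 103, 100.3 and 119 CPM in controls and 140.0, 163 and 126 CPM in *Rnmt* cKO. That of *Rc3h2* was 90.5, 89.8 and 98.7 CPM in controls and 90.8, 97.6 and 80.4 CPM in *Rnmt* cKO. *Rc3h1* was higher in every *Rnmt* cKO library, with a fold change of 1.33 (log2 0.41, SE 0.10, adjusted p = 0.011 from edgeR), whereas *Rc3h2* overlapped (log2 -0.05, SE 0.08, adjusted p = 0.59). With *Rnmt* cKO 3 alone the value of *Rc3h1* was 0.26 on the log2 scale (adjusted p = 0.086), more than 1.5 times smaller, and that of *Rc3h2* was -0.18 (adjusted p = 0.13).

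RPF of *Rc3h1* were 27.2, 27.4 and 30.8 CPM in controls and 30.9, 27.0 and 29.0 CPM in *Rnmt* cKO. RPF of *Rc3h2* were 17.9, 16.1 and 20.6 CPM in controls and 24.9, 20.4 and 26.6 CPM in *Rnmt* cKO. Both overlapped between genotypes, with log2 fold changes of 0.02 (adjusted p = 0.88 from edgeR) and 0.38 (adjusted p = 0.077). With the replicate block the RPF value of *Rc3h2* was 0.40 and passed the threshold (adjusted p = 0.038), although replicate numbers did not pair the genotypes. The change in TE was -0.39 for *Rc3h1* (SE 0.15, adjusted p = 0.13) and 0.43 for *Rc3h2* (SE 0.16, adjusted p = 0.12), so that *Rc3h2* was the member whose estimate was above 0. Without *Rnmt* cKO 2 the change of *Rc3h2* passed the threshold (0.60, adjusted p = 0.032), and that of *Rc3h1* was -0.23 (adjusted p = 0.38), more than 1.5 times smaller. The values for *Rnmt* cKO 3 alone were 0.73 for *Rc3h2* (adjusted p = 0.095) and -0.23 for *Rc3h1* (adjusted p = 0.65).

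*Elavl1* (ENSMUSG00000040028, chr8:4285382-4325413, minus strand), which encodes HuR, had total RNA of 133, 131 and 165 CPM in controls and 237, 261 and 177 CPM in *Rnmt* cKO. The groups did not overlap, although control 3 and *Rnmt* cKO 3 lay close together. The fold change was 1.57 (log2 0.65, SE 0.15, adjusted p = 0.0069 from edgeR), and the log2 value with *Rnmt* cKO 3 alone was 0.34 (adjusted p = 0.078), more than 1.5 times smaller. RPF were 466, 427 and 452 CPM in controls and 470.3, 469.9 and 472 CPM in *Rnmt* cKO, a log2 fold change of 0.07 with a 95% confidence interval of -0.06 to 0.20. The upper end of that interval is below the rise in total RNA.

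TE of *Elavl1* changed by -0.58 on the log2 scale (SE 0.17, adjusted p = 0.054 from edgeR), just outside the threshold. Its RPF level was 3.5, 3.27 and 2.73 times its total RNA level in controls and 1.99, 1.80 and 2.67 times in *Rnmt* cKO, where replicate 3 again lay next to control 3. With the block for the inferred culture the change was -0.57 and passed (adjusted p = 0.031). It passed under 6 of 16 alternatives, of which the others were DESeq2 (adjusted p = 0.0098), library sizes without TMM (0.0496), protein-coding genes alone (0.038), and leaving out control 3 (-0.69, adjusted p = 0.048) or *Rnmt* cKO 3 (-0.73, adjusted p = 0.0069). With *Rnmt* cKO 3 alone it was -0.26 (adjusted p = 0.57).

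*Khsrp* (ENSMUSG00000007670, chr17:57021051-57031522, minus strand) showed the most even controls of the 8 genes in total RNA after *Zfp36l2*, with 92.7, 96.6 and 95.7 CPM. In *Rnmt* cKO its total RNA was 137, 161 and 117 CPM, above all controls, a fold change of 1.46 (log2 0.54, SE 0.11, adjusted p = 0.0035 from edgeR), and the log2 value with *Rnmt* cKO 3 alone was 0.33 (adjusted p = 0.0094). Its RPF were 452, 466 and 458 CPM in controls and 393, 419.6 and 391 CPM in *Rnmt* cKO. The ranges were separate, but the fold change of 0.875 (log2 -0.19, SE 0.06, adjusted p = 0.037) passed under only 6 of 16 alternatives and not without any 1 of the controls, *Rnmt* cKO 1 or *Rnmt* cKO 3 (adjusted p = 0.064 to 0.12).

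The RPF level of *Khsrp* was 4.87, 4.82 and 4.79 times its total RNA level in controls and 2.87, 2.60 and 3.34 times in *Rnmt* cKO. TE fell by 0.73 on the log2 scale (SE 0.13, 95% confidence interval -1.02 to -0.45, adjusted p = 0.0031 from edgeR), to 0.601 of the control value, and 3.67% of genes had a lower value. It passed the threshold under all 16 alternatives, with adjusted p-values up to 0.027.

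**Figure D2:**
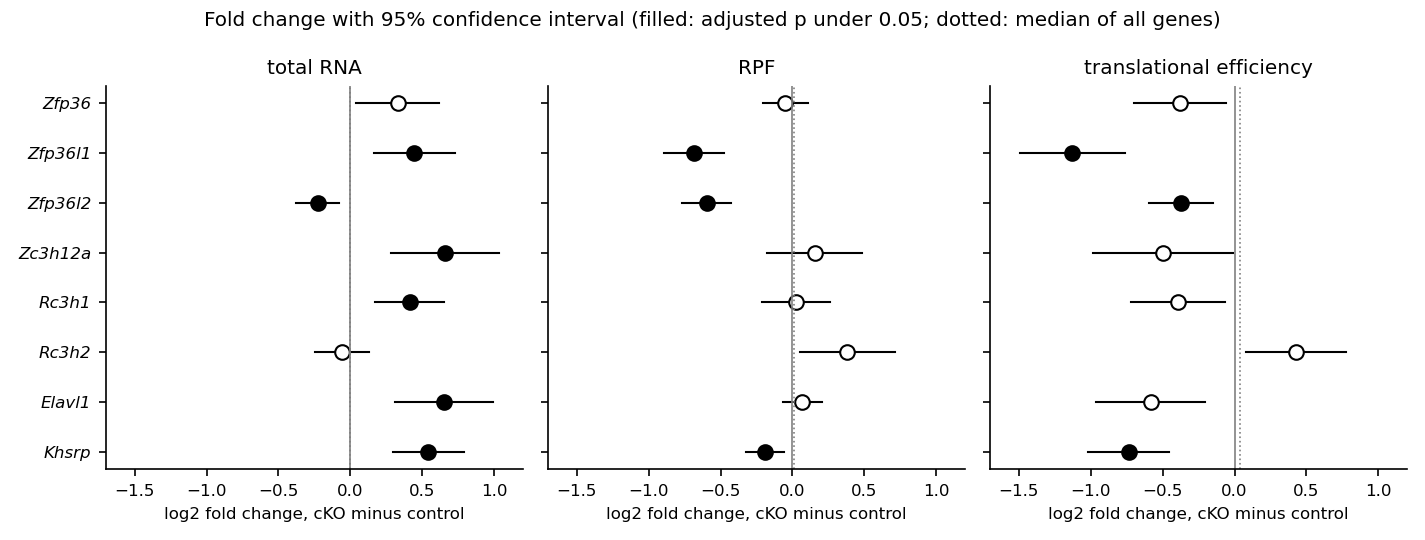
Log2 fold change of *Rnmt* cKO over control (x axis) in total RNA, RPF and TE for the 8 genes (y axis), with lines for 95% confidence intervals and filled points for adjusted p under 0.05. In total RNA 5 genes lie to the right of 0 past the threshold, and in TE *Zfp36l1*, *Zfp36l2* and *Khsrp* lie to the left past it while *Rc3h2* alone lies to the right.

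These counts were set against those of all genes. Of the genes tested, 54.2% passed the threshold in either direction for total RNA, whereas 29.8% did for RPF and 9.81% for TE. In total RNA 5 of 8 members were called higher, where 26.3% of all 11519 genes were, and 1 was called lower, where 28.0% were. The count of higher members was 2 with *Rnmt* cKO 3 alone, where 19.7% of genes were called higher. In RPF none was called higher (14.1% of 11428 genes) and 3 were called lower (15.7%). In TE none was called higher (3.24% of 10668 genes) and 3 were called lower (6.57%), with 346 genes higher and 701 lower in all, or 481 and 604 with upper quartile factors in place of TMM. At an unadjusted p under 0.05 in edgeR, *Rc3h2* was higher in RPF, as were 20.5% of genes, and in TE, as were 11.9%, and the other 7 members were lower in TE, as were 12.7%. DESeq2 called no member higher in RPF or TE after adjustment. *Zfp36l1* and *Khsrp* were called higher in total RNA and lower in RPF at once, as were 93 genes of 10668 (0.872%). One of these calls depends for each gene on the alternatives given above, the total RNA of *Zfp36l1* and the RPF of *Khsrp*. Both genes were also higher in total RNA and lower in TE, as were 613 genes (5.75%). Most of the 701 genes called lower in TE were thus also called higher in total RNA, so that this pattern was not particular to the members. Without overlap between genotypes, 6 members were higher in total RNA and 1 was lower, as were 30.0% and 32.3% of genes, and 1 was higher and 3 were lower in RPF, as were 22.2% and 24.3% of genes. The members' median log2 fold change in total RNA was 0.43 beside -0.00 for all genes. In RPF it was -0.01 beside 0.01, and in TE -0.45 beside 0.04.

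Per library, the ratio of RPF to total RNA was lower in every *Rnmt* cKO library than in every control for 7 of the 8 genes, a separation seen in 14.9% of all genes. *Rc3h2* was the exception, and its libraries were separated in the other direction, as in 16.6% of genes, by a margin of 0.209186 against 0.208645.

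**Figure D3:**
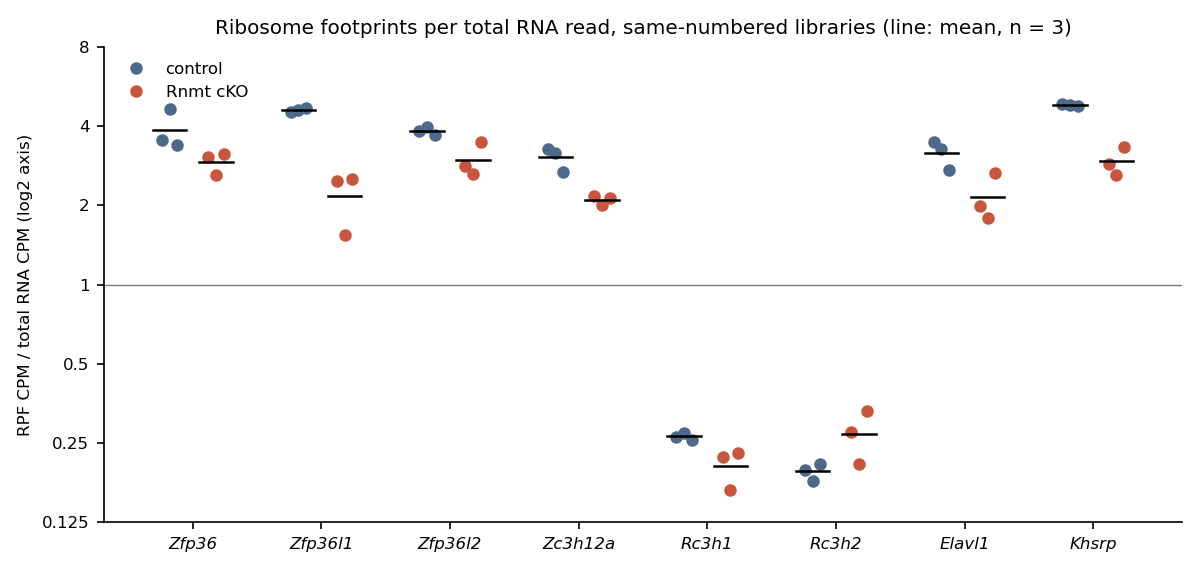
RPF level over total RNA level, both in CPM, of same-numbered libraries (y axis, log2 axis) for the 8 genes (x axis), with blue points for controls, red points for *Rnmt* cKO and a line for the mean of 3. Both Roquin genes lie at or below 0.331 in every library and the other 6 genes at or above 1.54.

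In controls 6 of the genes stood near the top of all genes in RPF per total RNA and the Roquin genes near the bottom. The mean log2 ratio of RPF to total RNA was 2.27 for *Khsrp*, 2.21 for *Zfp36l1*, 1.94 for *Zfp36l2*, 1.92 for *Zfp36*, 1.65 for *Elavl1* and 1.59 for *Zc3h12a*, higher than in 93.1 to 97.4% of the 10668 genes. For *Rc3h1* and *Rc3h2* it was -1.92 and -2.35, lower than in nearly all genes (3.56 and 1.98% of genes were below them). These ratios compare reads mostly over the coding sequence with reads over the whole transcript. The annotated 3′ UTRs are of 7181 and 5160 bases for *Rc3h1* and *Rc3h2*, and of 4218 bases for *Elavl1*, whose ratio was among the high ones. Which 3′ UTRs were in use was not measured, and the part of their length in these ratios was not tested. In *Rnmt* cKO the percentile of *Zfp36l1* was 84.1 in place of 97.2, that of *Elavl1* 83.6 in place of 93.5, that of *Zc3h12a* 83.8 in place of 93.1 and that of *Khsrp* 92.9 in place of 97.4. That of *Zfp36l2* was 93.3 in place of 96.0, that of *Zfp36* 93.0 in place of 95.9, that of *Rc3h1* 1.60 in place of 3.56 and that of *Rc3h2* 3.13 in place of 1.98.

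Levels of the genes were compared with each other per length, as CPM per kilobase of annotated exons for total RNA. In controls *Zfp36l1* was the highest at 31.1 ± 2.09 CPM per kilobase (SD, n = 3), followed by *Zfp36l2* at 22.9 ± 0.321, *Khsrp* at 22.0 ± 0.470, *Elavl1* at 13.8 ± 1.85, *Rc3h1* at 9.499 ± 0.909, *Zfp36* at 7.80 ± 1.26, *Rc3h2* at 4.74 ± 0.252 and *Zc3h12a* at 2.25 ± 0.300 CPM per kilobase. The libraries of *Rc3h1* and *Zfp36* overlapped, and no other neighbours did. The places of *Elavl1*, *Rc3h2*, *Zfp36l2*, *Rc3h1* and *Zfp36* depend on the length used, and so does the order of *Khsrp* and *Zfp36l2*. With the longest coding transcripts *Elavl1* and *Rc3h2* were at 24.9 and 10.4 CPM per kilobase. *Elavl1* then came next after *Zfp36l1*, overlapping with *Khsrp*, and *Khsrp* lay ahead of *Zfp36l2* without overlap. *Rc3h2* came ahead of *Rc3h1*, and *Rc3h1* ahead of *Zfp36*, both with overlap. In *Rnmt* cKO *Zfp36l2* was at 19.6 ± 1.29 CPM per kilobase of exons, behind *Khsrp* at 32.03 ± 5.14. Controls already had this order with the longest coding transcripts. *Zfp36l2* overlapped with *Elavl1* at 21.7 ± 4.18 CPM per kilobase of exons. With the longest coding transcripts *Elavl1* was at 39.2 ± 7.55 CPM per kilobase and did not overlap with *Zfp36l2*.

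Per kilobase of coding sequence, RPF of *Elavl1* were the most abundant in controls, at 459 ± 20.0 CPM per kilobase (SD, n = 3), ahead of *Zfp36l1* at 365 ± 30.7, *Zfp36l2* at 213 ± 4.62, *Khsrp* at 201 ± 3.07 and *Zfp36* at 107 ± 6.78 CPM per kilobase. *Zc3h12a*, *Rc3h1* and *Rc3h2* were far lower, at 10.9 ± 0.828, 8.40 ± 0.586 and 5.12 ± 0.631. No neighbours in this order overlapped. In *Rnmt* cKO *Elavl1* was at 481 ± 1.13 and *Zfp36l1* at 227 ± 22.5 CPM per kilobase.

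The balance within families was measured inside each library, where it does not depend on scaling. *Zfp36l1* held 50.3% ± 1.19 (SD, n = 3) of the total RNA of the *Zfp36* family per length in controls and 58.8% ± 3.47 in *Rnmt* cKO, and *Zfp36l2* held 37.1% ± 1.71 and 27.5% ± 3.08, both without overlap. The share of *Zfp36* in total RNA overlapped, at 12.6% ± 1.40 and 13.7% ± 0.504. In RPF its share was 15.7% ± 0.539 in controls and 22.0% ± 1.45 in *Rnmt* cKO, that of *Zfp36l1* was 53.2% ± 2.05 and 48.1% ± 1.298, both without overlap, and that of *Zfp36l2* overlapped at 31.2% ± 2.01 and 29.9% ± 0.795. *Zfp36l1* thus took a larger share of the family's mRNA and a smaller share of its RPF.

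In total RNA the log2 ratio of *Rc3h1* to *Rc3h2* per exon length was 1.00 ± 0.06 (SD, n = 3) for controls, compared with 1.47 ± 0.06 in *Rnmt* cKO. In RPF, per coding length, it moved the other way, from 0.72 ± 0.10 to 0.35 ± 0.14. Its level in total RNA depends on the length used. With the longest coding transcripts the mean of *Rc3h1* lay below that of *Rc3h2* in controls. Lengths cancel in the difference between genotypes, which was 0.47 in total RNA whichever length was used. The log2 ratio of the summed *Zfp36* family, whose proteins promote decay, to *Elavl1* was 2.17 ± 0.11 and 1.73 ± 0.18 in total RNA per exon length. It was smaller in both genotypes with the longest coding transcripts. In RPF it was 0.58 ± 0.10 in controls and -0.03 ± 0.11 in *Rnmt* cKO. Each of these 4 differences was without overlap, and so were 4 of the 6 family shares. The exact two-sided permutation p was 0.1 for each of these 8, which is the smallest that 3 libraries against 3 can give, and 0.125 after Benjamini-Hochberg adjustment over the 10 ratios, so that none could pass a threshold of 0.05.

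**Figure D4:**
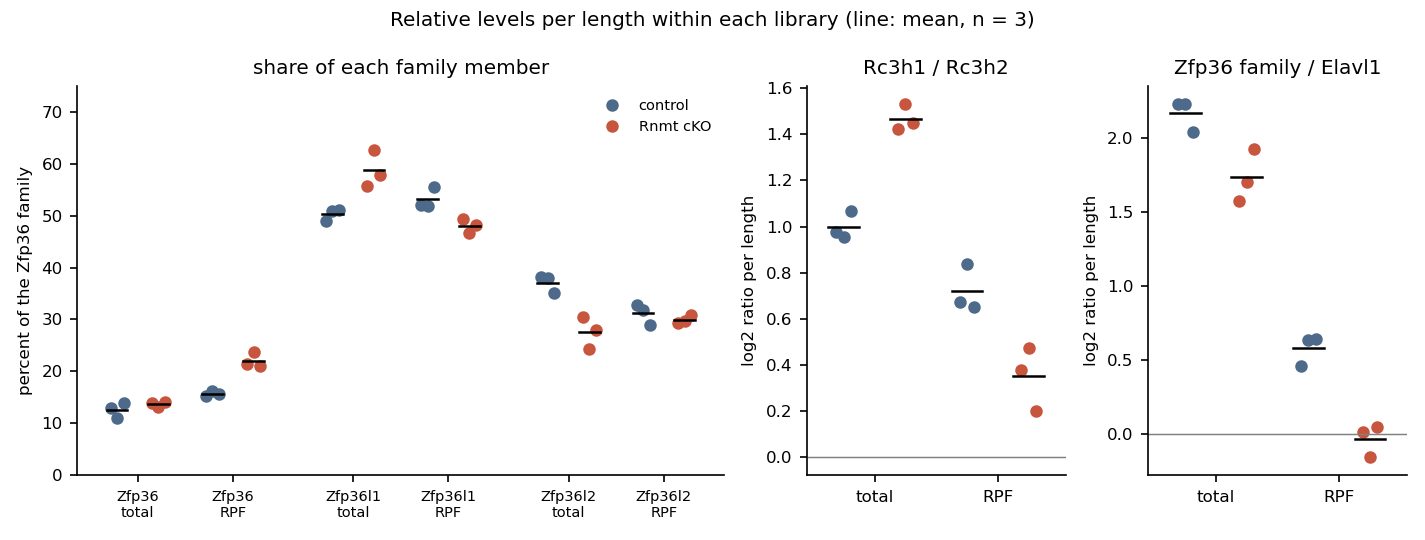
Share of *Zfp36*, *Zfp36l1* and *Zfp36l2* in the per-length level of their family in percent (left, y axis from 0), and log2 ratios of *Rc3h1* to *Rc3h2* and of the *Zfp36* family to *Elavl1* (middle and right, y axes), in each library of total RNA and RPF (x axes), with blue points for controls, red points for *Rnmt* cKO and a line for the mean of 3. The share of *Zfp36l1* is higher in *Rnmt* cKO in total RNA and lower in RPF, and the Roquin ratio also moves in opposite directions in the 2 kinds of library.

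The complexes that carry out decay were read from lists by function, which were chosen with earlier results of these data known. Their counts stand beside the shares of all genes, 26.3% higher and 28.0% lower in total RNA, 14.1% and 15.7% in RPF, and 3.24% and 6.57% in TE. Of 19 genes of CCR4-NOT and other deadenylation factors, 9 were higher and 1 was lower in total RNA (list median 0.27 on the log2 scale), 3 were higher and 5 lower in RPF, and 5 were lower and none higher in TE (median -0.37). *Cnot3*, a scaffold subunit of the deadenylase, rose from 12.9 ± 1.52 to 20.1 ± 5.22 CPM (SD, n = 3) and *Parn*, a separate poly(A) nuclease, from 41.1 ± 3.67 to 67.1 ± 7.18 CPM. *Tnks1bp1*, which binds CCR4-NOT, fell from 11.3 ± 0.450 to 6.14 ± 0.857 CPM. The 5 genes with lower TE were the subunits *Cnot2*, *Cnot10* and *Cnot11* and the adaptors *Tob2* and *Btg2*, with log2 changes of -0.45, -0.44, -0.37, -0.43 and -0.43.

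The RNA exosome degrades mRNA from its 3′ end with help of the Ski complex. Of 15 of its genes tested, 7 were higher and 4 lower in total RNA (median 0.15), 1 was higher and 1 lower in RPF, and 4 were lower and 1 higher in TE (median -0.03). The nuclease gene *Exosc10* rose in total RNA from 92.5 ± 3.10 to 146 ± 11.01 CPM (SD, n = 3) and fell in RPF from 242 ± 9.19 to 183 ± 15.4 CPM. Its TE fell by 1.05 (SE 0.11, adjusted p = 5.2e-05 from edgeR). The catalytic subunit genes *Dis3* and *Dis3l* also had lower TE (-0.58 and -0.66), as did *Exosc9* (-0.37), whereas TE of *Ttc37*, a Ski subunit, was higher (0.35, adjusted p = 0.017), a call lost under 7 of 16 alternatives. *Dis3l* rose in total RNA by 0.64, while *Exosc7* and *Skiv2l* fell by 0.47 and 0.33 on the log2 scale.

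In total RNA other 3′ UTR binding proteins were called in both directions. Of 12 tested of 16 listed, 3 were higher and 5 lower in total RNA (median -0.00), and none was higher and 5 were lower in RPF. *Zc3h12d*, which encodes a relative of Regnase-1, fell from 348 ± 14.4 to 195 ± 14.4 CPM in total RNA (SD, n = 3; log2 -0.84, SE 0.07) and *Tia1*, an AU-rich element binder that represses translation, from 70.8 ± 1.01 to 37.4 ± 1.41 CPM. *Zc3h12c*, at 0.408 ± 0.108 and 2.95 ± 1.42 CPM, passed the filter only through *Rnmt* cKO, and without it 2 of 11 were higher and 5 lower in total RNA (median -0.17). Of 12 partners and modifiers, 8 were higher and 1 lower in total RNA (median 0.28), 6 were higher and 1 lower in RPF, and none passed in TE. Among them the helicase gene *Upf1*, a partner of Regnase-1, and *Mapkapk2*, whose kinase phosphorylates ZFP36, both rose by 0.56, and *Mapk14*, the p38 kinase upstream of it, fell by 0.47 on the log2 scale.

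The next lists hold mRNAs known to be regulated through these elements, and 9 of the 23 listed AU-rich element targets were too low to be tested. Of the 14 tested, 12 were higher and none lower in total RNA (median 1.52 on the log2 scale), and 10 of 13 were higher in RPF (median 1.08), while *Pim1* alone passed in TE (-0.74, adjusted p = 0.028 from edgeR). *Csf2* and *Ier3* passed the filter on low counts only through the *Rnmt* cKO libraries in total RNA, and *Ier3* also in RPF, so that they had to differ. Without them 10 of 12 were higher in total RNA (median 1.17) and 9 of 12 in RPF (median 0.91). *Ifng*, the gene of interferon gamma, rose from 2.14 ± 0.845 to 20.2 ± 3.11 CPM in total RNA (SD, n = 3) and from 2.53 ± 0.411 to 36.8 ± 6.17 CPM in RPF. *Csf2*, which encodes the cytokine GM-CSF, rose from 0.1246 ± 0.0322 to 2.59 ± 1.38 CPM and was too low in RPF to be tested. The kinase gene *Pim1* rose from 65.6 ± 4.72 to 396 ± 54.9 CPM.

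Of 12 stem-loop targets tested of 17 listed, 7 were higher and none lower in total RNA (median 0.42), 5 were higher and none lower in RPF (median 0.29), and none passed in TE. *Rel*, an NF-kappaB subunit gene, rose from 42.0 ± 6.80 to 119 ± 16.7 CPM (SD, n = 3). *Ier3*, an early response gene, rose from 0.676 ± 0.264 to 3.48 ± 0.377 CPM. Both target lists hold *Ier3*, *Il2*, *Tnf*, *Il6*, *Ptgs2* and *Cxcl1*. Of these, *Ier3*, *Il2* and *Tnf* were called higher in total RNA and are counted in both lists. Without *Ier3*, which passed the filter only through *Rnmt* cKO, 6 of 11 were higher in total RNA (median 0.31) and 4 of 11 in RPF (median 0.26). The B cell and NK cell marker sums given above also moved with genotype, and their part in these counts was not tested. Without *Rnmt* cKO 1 and 2, which leaves 1 *Rnmt* cKO library per kind, fewer genes of the 6 lists were called higher in total RNA and in RPF. Over all genes fewer were called higher in both kinds too. A nonamer was held by 13 of 23 AU-rich element targets and 5 of 17 stem-loop targets, with median 3′ UTRs of 637 and 764 bases. Of genes tested in both kinds of library 7.28% held it. The first list was made of mRNAs known for AU-rich elements, so that its count is not an independent finding. The named targets *Ifng* and *Ier3* held 4 heptamers each but no nonamer. Windows of 3 named targets that hold a nonamer are shown for comparison with those of the regulators, with the nonamer in capitals.
Csf2: ttttaaatatTTATTTATTtatttatttat
Pim1: tttaatgtatTTATTTATTtatttatttgg
Rel: ctcccagactTTATTTATTttttttagctt
They lie at chr11:54247328-54247357 on the minus strand, chr17:29495689-29495718 on the plus strand and chr11:23737833-23737862 on the minus strand. *Csf2* held 4 nonamers and *Pim1* 3, overlapping like those of *Elavl1*, whereas *Rel* held 1, as did *Zfp36l1*.

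**Figure D5:**
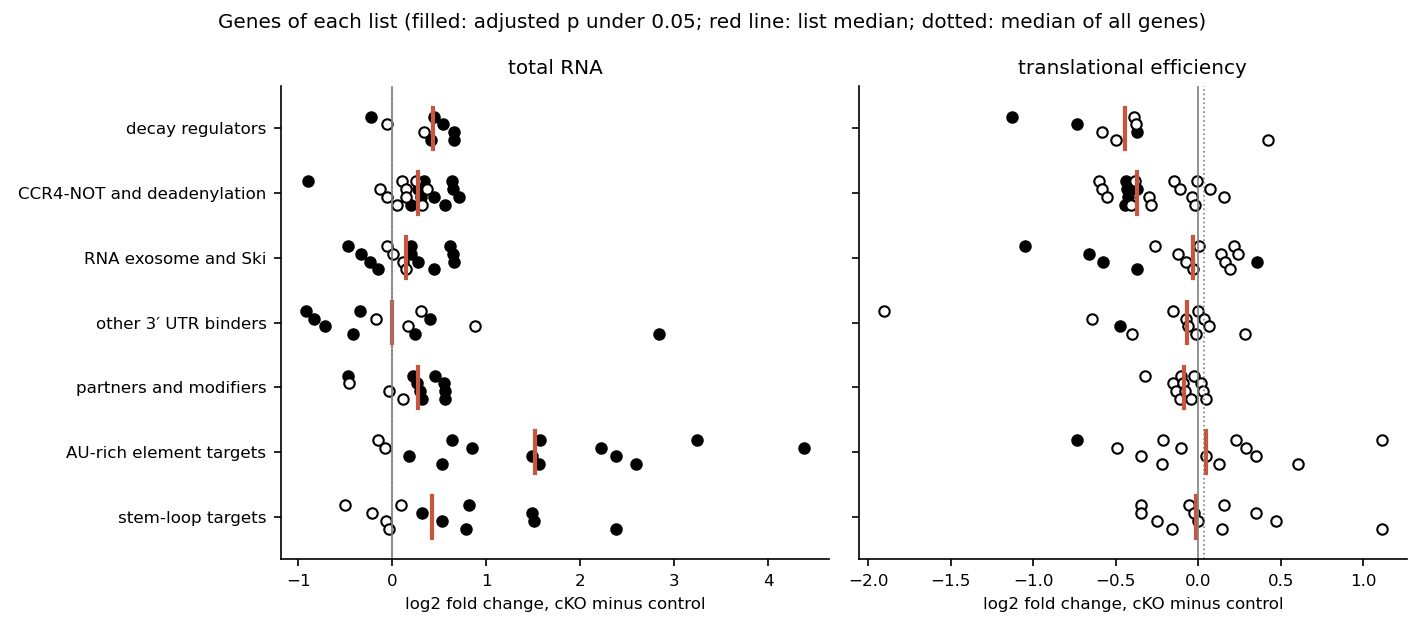
Log2 fold change of *Rnmt* cKO over control in total RNA and in TE (x axes) for each tested gene of the 8 regulators and 6 other lists (y axis), with a red line for the list median. The AU-rich element targets have a median of 1.52 in total RNA and 0.05 in TE, and the regulators one of 0.43 in total RNA and -0.45 in TE.

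For each regulator the genes with the most similar pattern were found among 7532 genes, by the root mean square difference over 12 libraries of log2 CPM relative to the control mean of the same kind. *Supt6* was nearest to *Khsrp* at a difference of 0.0482, followed by *Taf4* at 0.0647, where the median gene was at 0.368. *Purb* and *Tor1aip1* were nearest to *Rc3h1* (0.0565 and 0.0707), *Arhgef7* and *Ywhae* to *Elavl1* (0.0622 and 0.0656), *Llgl1* and *Zfp148* to *Zfp36* (0.0699 and 0.0812), and *Nt5c3b* and *Smarca2* to *Zfp36l2* (0.0766 and 0.0788). *Socs4* and *Zfp568* were nearest to *Rc3h2* (0.0923 and 0.0996), and *Ube2k* and *Arf4* to *Zc3h12a* (0.114 and 0.120). *Zfp36l1* had the most distant neighbours, *Trp53bp1* at 0.151 and *Parp4* at 0.175, whose changes in TE were -0.90 and -0.70.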

How the data were processed

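Total cytoplasmic RNA and RPF libraries of activated CD4 T cells were used, 3 per genotype and kind. Per the study's methods and the submitters' processing notes, the authors trimmed reads with Cutadapt, removed rRNA and tRNA with Bowtie and aligned to mm10 with STAR 2.5.2b and GENCODE vM12 basic. The deposited counts are reads per gene, of which the reverse-strand column was used. The deposited signal table of 10126 genes holds the authors' normalised values and was used for gene symbols and to check the strand. Its columns of comparisons by RiboDiff and edgeR were not used.

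Genes above 1 CPM in at least 3 of 6 libraries of a kind were fitted with edgeR 4.0.16 (R 4.3.3, limma 3.58.1) by the quasi-likelihood test with TMM factors, and TE was tested as the genotype by kind interaction term in a fit of 12 libraries. p-values were Benjamini-Hochberg adjusted over all genes tested, with a threshold of 0.05. Log2 CPM used a prior count of 2. SE is the log2 fold change divided by the root of F. The test was checked on simulated data, in which few genes changed and the dispersion was the same for all genes. In the measured total RNA 54.2% of genes were called, so that the check covers a simpler case. Scripts used Python 3.11.15. Per library, 7.48 to 10.7% of total RNA reads and 26.5 to 33.6% of RPF reads were unmapped.

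The main TE fit had no term for the culture. Deviations of total RNA and RPF of the same number correlated in all 6 pairs (r = 0.11 to 0.38). From this and the library kit a shared culture was inferred, which the labels do not state. A fit with it as a block was run and is given where it changes the call of a member. Its counts for the other lists are given below. Members and lists were chosen with earlier results of these data known. Genes named from the other lists were the 2 largest rises and falls in total RNA among genes past the threshold without overlap, and every gene past it in TE; 1 gene that this rule named is not reported here. Alternatives were other normalisations, DESeq2 1.42.0, an exact test, other filters, both strands, blocks and leaving out each library. *Rnmt* cKO 3 alone against the controls was added after seeing the data.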

Additional observations from a re-analysis of the deposited data

Results flagged for a closer look

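The effect of genotype differed between RPF and total RNA, by the interaction test in edgeR, for 3 of the 8 genes. The difference on the log2 scale was -1.13 for *Zfp36l1*, -0.73 for *Khsrp* and -0.37 for *Zfp36l2*. The value for *Zfp36l2* did not pass with a block for the inferred culture, and the other 2 passed under all 16 alternatives.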

How the results depend on the processing

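Over 16 alternatives the fall of *Zfp36l1* in RPF and TE, that of *Zfp36l2* in RPF, the rise of *Khsrp* in total RNA and its fall in TE kept their direction and side of the threshold. With *Rnmt* cKO 3 alone, 2 members were higher in total RNA, 14 genes of the 6 other lists were higher and 6 lower in RPF, 0 were higher and 5 lower in TE, and *Zc3h12a* in RPF was -0.15, while over all genes 2193 were higher and 2309 lower in total RNA (3024 and 3220 with all libraries), 477 and 520 in RPF (1612 and 1796) and 81 and 294 in TE (346 and 701). Replicate numbers did not pair the genotypes (r = -0.52 to 0.15). With them as a replicate block, 0 members were lower in total RNA, 1 (*Rc3h2*) was higher in RPF and 0 genes of the other lists were higher in TE, while over all genes 2455 were higher and 2751 lower in total RNA, 1596 and 1636 in RPF, and 190 and 456 in TE. With the block for the inferred culture 426 genes were higher and 777 lower in TE over all genes. Of the other lists 2 genes were then higher in TE and 12 lower, in place of 1 and 11. Without a filter 0 genes of the other lists were higher in TE. *Rc3h1* in RPF was -0.012 without a filter and -0.0018 with upper quartile factors. Counting both strands gave 0.19 for *Zfp36* in RPF and differences in family share of 3.31 percentage points for *Zfp36* in total RNA, and of 11.3 for *Zfp36*, -7.88 for *Zfp36l1* and -3.44 for *Zfp36l2* in RPF. Leaving out 1 replicate at a time, which for TE removes both its total RNA and its RPF library, gave 0 to 1 members lower in total RNA, 0 to 1 members higher in TE, 0 to 1 genes of the other lists higher and 6 to 16 lower in TE, -0.104 to 0.0297 for *Rc3h2* in total RNA and -0.0248 to 0.0815 for *Rc3h1* in RPF. The cause of these shifts was not tested. *Rnmt* cKO 3 had the fewest RPF reads, 4123271, of which 72 were on *Zc3h12a*.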

Other observations

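Counts made without regard to strand differed for *Zfp36l1* and *Zfp36*. For *Zfp36l1* they were 74.7 to 82.9% of the own-strand count in RPF and 38.3 to 44.1% in total RNA. The gene overlaps the lincRNA *Gm26669* on the other strand over 4967 bases. For *Zfp36* they were 103.7 to 185% in RPF and 98.6 to 101.2% in total RNA, and it overlaps the antisense gene *Gm44710* over 1274 bases. *Zfp36l2* overlaps *AC132455.1* over 2192 bases, and its counts without strand in total RNA were 100.1 to 100.5% of the own-strand count.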
